A study of Capra hircus with 9 samples.

Results

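The genes described here are the WNT ligands, their agonists, their receptors and their inhibitors in the mammary gland of the dairy goat. They were chosen by a rule on the gene symbol, and 50 of the 23499 genes of the expression table met the symbol rule. These 50 genes comprised 19 WNT ligand genes, 4 R-spondin genes (RSPO, the agonists), 12 receptor genes (10 of the FZD family plus the co-receptors LRP5 and LRP6), 3 receptors of R-spondins (LGR4, LGR5 and LGR6), 8 secreted inhibitor genes (SFRP, DKK and WIF1) and 4 feedback inhibitor genes (AXIN1, AXIN2, RNF43 and ZNRF3). Mammary tissue had been collected at slaughter from 9 healthy goats of the Laoshan breed, kept for milk in China, with a parity of 3 and an average age of 4 years. The goats fell into 3 stages: late lactation (LL, 240 days postpartum, n = 3), the dry period (DP, 300 days postpartum, n = 3) and late gestation (LG, 140 days after mating, n = 3). Each goat gave 1 RNA sequencing library of whole tissue, and the labels name no treatment or genetic change.

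WNT proteins are secreted, lipid-modified signals. They bind FZD receptors together with the co-receptors LRP5 or LRP6, which stabilises beta-catenin and switches on target genes, or they act through other routes that steer cell polarity and movement. R-spondins bind LGR receptors and take the ubiquitin ligases RNF43 and ZNRF3 away from the FZD receptors, which strengthens the signal. SFRP proteins and WIF1 bind WNT proteins outside the cell, DKK1 and DKK2 block LRP5 and LRP6, and AXIN2 is a scaffold of the beta-catenin destruction complex that beta-catenin itself switches on. In the mouse mammary gland these genes are known for duct growth, for side branching in pregnancy and for the upkeep of basal progenitor cells.

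The values were read as FPKM (fragments per kilobase of transcript, relative to the mapped fragments of the library), which are per length, so that levels of different genes can be set side by side. The number of reads behind a value is not known, and no counting error can be given. A library summed to 940676 to 1157015 FPKM at LL, to 601250.2 to 616268 at DP and to 733277 to 768157 at LG, and the milk protein genes CSN2 and LALBA alone made up 99068 to 131519 FPKM of this at LL, 21.4 to 51.6 at DP and 4930 to 6534 at LG. Each library was therefore divided by a median-ratio factor (0.496 to 0.604 for LL, 1.44 to 1.52 for DP, 1.19 to 1.31 for LG), and the levels below are these scaled FPKM unless deposited FPKM are named. Without the factors the median log2 fold change of all genes was 1.09 for DP against LL, 0.93 for LG against LL and -0.18 for LG against DP. Every log2 fold change is on the scale log2(scaled FPKM + 1), which understates changes of weak genes. A gene was called when limma, fitted over all 9 libraries and 14701 genes, put its adjusted p (Benjamini-Hochberg) below 0.05 and its log2 fold change at 1 or more in either direction. The tissue is bulk, so that fewer cells of a type and less RNA per cell cannot be told apart. All 6 luminal epithelium markers (EPCAM, KRT8, KRT18, KRT19, CDH1 and CLDN4) were found in every library, and none of them was called in any comparison. Some passed the adjusted p but not the fold threshold. In DP against LL these were EPCAM (-0.74, adjusted p = 0.0257) and CDH1 (-0.48, adjusted p = 0.0311). In LG against DP they were EPCAM (0.80, adjusted p = 0.0296) and KRT18 (-0.89, adjusted p = 0.0239).

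A property of the table bears on weak genes. In LL, 873 genes stood within 0.3 FPKM above fixed amounts (1.0 in LL1, 1.3 in LL2 and 1.5 in LL3) in all 3 libraries, against 11 genes that stood within 0.3 FPKM below them. All 873 lay at or above amounts of 1.0 to 1.5 FPKM in the DP libraries, 752 of them at or above 1.5 to 2.0, and 870 lay at or above 1.0 to 1.5 FPKM in the LG libraries. Among the members, WNT2, WNT9A, FZD10 and WIF1 stood at these amounts in LL, so that their levels there cannot be told from the amounts themselves. None of these 4 genes was called in any comparison. How the amounts arose is not stated in the sources used here. Taking them off every gene that reached them in all 9 libraries was run as an alternative.

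Of the 50 members, 32 passed the filter of at least 0.5 FPKM in at least 3 libraries and were tested, and 18 were not. Both WNT1 and WNT8A were at 0 in every library. Of the 32 tested members, 16 were called in at least 1 comparison and 16 in none. In DP against LL, 7 of the 32 (21.9%) were called, where 22.6% of all genes tested were called. The genes FZD1, FZD7, SFRP1, DKK3 and AXIN2 were higher in DP (5 members, with 13.8% of all genes called higher), and WNT5A and FZD5 were lower (2 members, with 8.79% of all genes called lower). In LG against LL, 7 (21.9%) were called against 17.3% of all genes, with RSPO1 and WNT6 higher in LG (2 members, 10.7% of all genes) and WNT5A, WNT4, FZD5, FZD8 and SFRP5 lower (5 members, 6.61% of all genes). In LG against DP, 11 (34.4%) were called against 13.3% of all genes. There RSPO1, WNT6 and LRP5 were higher in LG (3 members, 6.38% of all genes), and WNT4, WNT11, FZD1, FZD4, LGR5, DKK3, SFRP1 and SFRP5 were lower (8 members, 6.89% of all genes). By the adjusted p alone, with no fold threshold, 19 members passed for DP against LL (56.9% of all genes), 18 for LG against LL (50.2%) and 15 for LG against DP (34.8%). The members' share was thus close to that of all genes in DP against LL. The 3 comparisons share libraries, and a member that passed the filter only through the stage where it was high had to differ, so these counts are descriptions. Without the scaling factors the split turned to 16 higher and 0 lower in DP against LL and to 11 higher and 0 lower in LG against LL, where all genes stood at 7979 higher and 369 lower and at 6698 higher and 345 lower. LG against DP had 3 members higher and 8 lower with or without the factors.

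**Figure D1:**
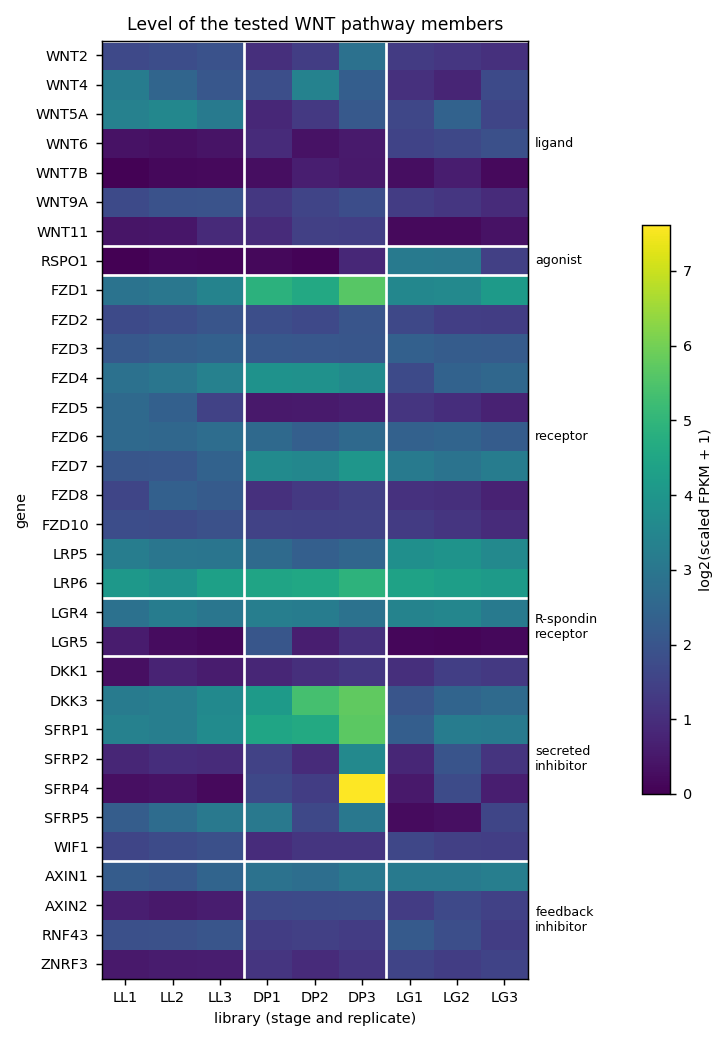
Level of the 32 tested members (rows, by class) in the 9 libraries (columns), as log2(scaled FPKM + 1). FZD1, DKK3 and SFRP1 are brightest in DP, RSPO1 is brightest in the LG columns, and SFRP4 is bright in a single library, DP3, at 194 scaled FPKM.

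DP3 stood apart from DP1 and DP2 for several members. In it, 9 members (WNT2, WNT2B, WNT5A, WNT9B, RSPO1, DKK2, SFRP1, SFRP2 and SFRP4) had at least 1 deposited FPKM and more than 2 times the value of the next DP library. The same held for WNT6 and LGR5 in DP1 and for WNT4 in DP2. Of the fibroblast markers, COL1A1 was 475 FPKM in DP3, against 54.5 in DP1 and 127 in DP2. COL1A2 (113, 255 and 933 in DP1, DP2 and DP3), COL3A1 (219, 336 and 1149) and LUM (60.1, 87.6 and 328) were likewise highest in DP3. PDGFRA (35.4, 35.1 and 48.0) and DCN (286, 465 and 509) differed less. The myoepithelial and basal markers ACTA2 (52.8, 46.0 and 203), MYH11 (22.7, 31.9 and 81.2) and CNN1 (7.79, 7.43 and 44.6) were also highest in DP3. The other markers of that list, KRT5, KRT14, TP63 and OXTR, were not. The adipocyte marker ADIPOQ was 19.3 FPKM in DP1, against 0.79 in DP2 and 1.72 in DP3. Without DP3, 8 members (6 higher, 2 lower) and 3238 of all genes were called in DP against LL. In LG against DP without DP3, 7 members (3 higher, 4 lower) and 1814 of all genes were called, against 1951 genes with DP3. LGR5 and WNT7B did not pass the filter without DP3. Without DP2 the count in LG against DP was also 7 (2 higher, 5 lower), beside 1883 of all genes.

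Among the ligands, WNT5A stood out in LL, WNT4 and WNT11 were low in LG, and WNT6 was high in LG. WNT5A (chr22:45489033-45508672), which acts mainly without beta-catenin and is known to restrain duct growth, had a scaled FPKM of 9.17, 10.4 and 7.83 in LL, of 0.807, 1.40 and 3.39 in DP and of 2.09, 4.25 and 2.0 in LG. Every LL library lay above every DP and LG library, whereas DP and LG overlapped. Its log2 fold change was -1.92 ± 0.32 (SE) in DP against LL (adjusted p = 0.000861) and -1.47 ± 0.32 in LG against LL (adjusted p = 0.00429). In LG against DP it was 0.45 (adjusted p = 0.298). The separation depends on the scaling, since the deposited FPKM of WNT5A was 4.87 in DP3 and 4.55 to 5.76 in LL, and without scaling neither difference was called.

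WNT4 (chr2:5244660-5273653), a ligand that acts downstream of progesterone in side branching, varied widely between goats of a stage. It had 8.20, 4.61 and 3.15 scaled FPKM in the LL goats, 2.55, 9.41 and 3.87 in DP and 1.06, 0.732 and 2.28 in LG. All LG libraries were below all others, and LL and DP overlapped. On the log2 scale it differed by -1.40 ± 0.42 in LG against LL (adjusted p = 0.0197) and -1.31 ± 0.42 in LG against DP (adjusted p = 0.0356). Both calls depended on settings and on single libraries. That against LL was lost without scaling (-0.53, adjusted p = 0.248), and also without LL1 (-1.12, adjusted p = 0.0705), LG1 (adjusted p = 0.0575) or LG2 (adjusted p = 0.0707). That against DP was lost with quantile normalization (adjusted p = 0.0595) and with no filter (adjusted p = 0.0660), and also without DP2 (-0.85, adjusted p = 0.107), LG2 (-1.11, adjusted p = 0.109), LG1 (adjusted p = 0.0966), LL2 or DP3 (adjusted p = 0.0508 for each).

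WNT6 (chr2:28964707-28977894), a ligand of the beta-catenin route, went the other way. Its level was 0.302, 0.254 and 0.331 in the LL goats, 0.912, 0.292 and 0.474 in DP and 1.88, 2.14 and 2.61 in LG. The lowest LG library lay above the highest DP library, and LL and DP overlapped. Only the LG libraries, DP1 and DP3 reached 0.5 deposited FPKM, so that a difference of LG from LL was built into the selection of WNT6. On the log2 scale LG exceeded LL by 1.3 ± 0.16 (adjusted p = 0.000208) and DP by 1.06 ± 0.16 (adjusted p = 0.00114). The latter fell just under the fold threshold without DP2 (0.91) or LG3 (0.95), and the former with quantile normalization (0.86). WNT11 (chr15:27295184-27316720), a ligand linked to tissue movements and branching, was highest in DP, at 0.925, 1.71 and 1.65, against 0.343, 0.363 and 0.861 in LL and 0.134, 0.138 and 0.305 in LG. The 3 stages did not overlap, and the difference between LG and DP was called (-1.01 ± 0.19, adjusted p = 0.00275). It lay close to the fold threshold and fell under it without DP2 (-0.90), DP3 (-0.91), LG1 or LG2 (-0.97 for each), with quantile normalization (-0.76) and with the fixed amounts subtracted (-0.99). In DP against LL the log2 fold change of WNT11 was 0.67 (adjusted p = 0.0120). Only the DP libraries and LL3 reached 0.5 deposited FPKM, so that a difference of DP from LG was built into the selection of WNT11.

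The other tested ligands, WNT2, WNT7B and WNT9A, were not called in any comparison. WNT2 had a level of 2.18 to 2.75 in LL and 1.06 to 1.5 in LG, and in DP it reached 6.16 in DP3 alone, with 1.04 and 1.61 in DP1 and DP2. WNT7B stayed at or below 0.550 in every library. The 12 ligands that were not tested had at most 1.95 deposited FPKM in any library, the highest being WNT2B in DP3. Deposited FPKM of WNT10B was 0.97 in DP3 and at most 0.10 elsewhere, and that of WNT9B was 1.04 in DP3 and at most 0.39 elsewhere.

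The make-up of the ligand class is given as a description, with no test. WNT5A held 42.9% ± 4.75 (SD, n = 3) of the summed ligand FPKM of the LL goats, 10.8% ± 4.15 in DP and 27.5% ± 9.87 in LG. WNT6 held 1.40% ± 0.309 in LL, 4.69% ± 4.85 in DP and 22.5% ± 3.83 in LG. WNT4 held 24.3% ± 9.49 in LL, 32.9% ± 17.6 in DP and 14.0% ± 8.56 in LG, and its SD in DP was larger than the difference between DP and LL. These shares do not depend on the scaling factors, because they are taken within a library. WNT2, WNT5A and WNT9A lay at or above the fixed amounts (the lower ones in DP) in every library. Ligand shares without the amounts were not computed.

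RSPO1 (chr3:12519202-12541600) had the largest log2 fold change of the 32 tested members in LG against LL and was the only member of the agonist class that passed the filter. It is a secreted agonist that in the mouse mammary gland is made by luminal cells and acts on basal progenitors. Its level was 0, 0.0906 and 0.0828 in the LL libraries, 0.131, 0.0487 and 0.794 in DP and 7.86, 7.38 and 1.73 in LG. All 3 LG libraries lay above all libraries of the other stages, although LG3 had less than LG1 and LG2. Only the LG libraries and DP3 reached 0.5 deposited FPKM, so that a difference in favour of LG was built into the selection of RSPO1. Its log2 fold change was 2.47 ± 0.40 in LG against LL (adjusted p = 0.000966) and 2.19 ± 0.40 in LG against DP (adjusted p = 0.00285), and both calls held under each of the 20 alternatives run for them. The other agonists were hardly detected. RSPO3 was 0.17 to 0.73 deposited FPKM in DP, at most 0.10 in LL and at 0 in LG, and RSPO2 and RSPO4 were at most 0.06 in any library.

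**Figure D2:**
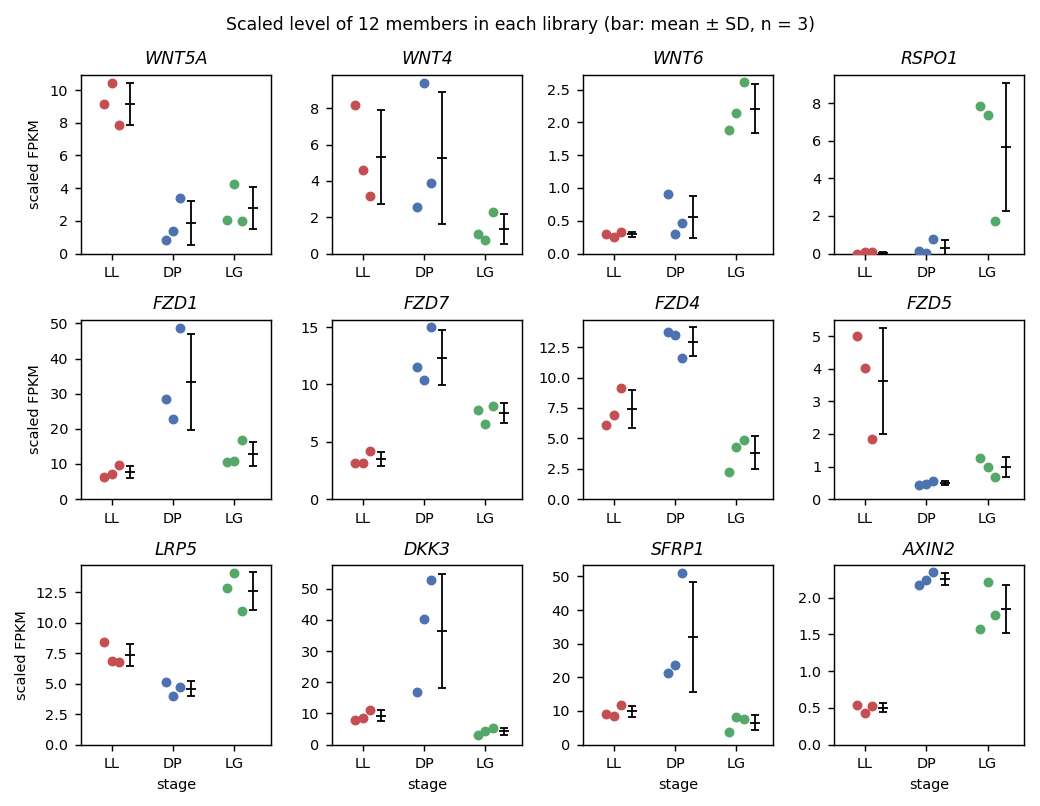
Scaled FPKM of 12 members called in at least 1 comparison, 1 point for each library (LL, DP and LG on the horizontal axis), with the mean and SD of the 3 libraries of a stage beside them and axes that start at 0, where the SD bars are cut. WNT5A is highest in LL, FZD1, FZD7, DKK3 and SFRP1 in DP, and WNT6, RSPO1 and LRP5 in LG.

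Most FZD receptor genes were found at all stages, and they did not move together. FZD1 and FZD7 were higher in DP, FZD4 was lower in LG, and FZD5 was highest in LL, as was FZD8 after scaling only (deposited means of 1.78 FPKM in LL and 2.04 in DP). FZD1 (chr4:111901108-111905297) had the highest mean deposited FPKM over the 9 libraries of the receptor class. Its level was 6.41, 7.07 and 9.62 in the LL goats, 28.5, 22.9 and 48.8 in DP and 10.6, 11 and 16.7 in LG. The 3 stages did not overlap. FZD1 differed by 1.93 ± 0.28 (log2) in DP against LL (adjusted p = 0.000396) and -1.28 ± 0.28 in LG against DP (adjusted p = 0.00700). The latter fell under the fold threshold without DP3 (-0.97, adjusted p = 0.0131), whereas DP against LL was still called without it (1.62).

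FZD7 (chr2:45350113-45354950), which is known from basal progenitor cells of the mouse gland, was 3.10, 3.15 and 4.22 in the LL libraries, 11.6, 10.4 and 15.0 in DP and 7.80, 6.50 and 8.15 in LG. Again the stages did not overlap, with LG between the others. DP exceeded LL by 1.56 ± 0.16 (log2, adjusted p = 5.4e-05), under each of the 20 alternatives. In LG against LL the log2 fold change was 0.92 (adjusted p = 0.00156), just under the fold threshold, which it passed without LL3 (1.03) or LG2 (1.0), with a pseudocount of 0.1 (1.08), without scaling (1.82) and with the fixed amounts subtracted (1.5).

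FZD4 (chr29:8038856-8048168), which is also the receptor of the vascular ligand norrin, was 6.12, 6.94 and 9.18 in the LL goats, 13.7, 13.5 and 11.6 in DP and 2.26, 4.30 and 4.84 in LG. Each LG library lay below all others, and LG differed from DP by -1.58 ± 0.22 (adjusted p = 0.000709). Against LL its log2 fold change in LG was -0.84 (adjusted p = 0.0114), which turned to 0.14 without scaling.

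FZD5 (chr2:39885196-39892037) was 5.02, 4.04 and 1.84 in the LL libraries, 0.446, 0.466 and 0.550 in DP and 1.27, 0.984 and 0.664 in LG. The LL libraries spread widely, but each lay above all others. FZD5 differed by -1.57 ± 0.25 (log2) in DP against LL (adjusted p = 0.000642) and -1.17 ± 0.25 in LG against LL (adjusted p = 0.00377), and neither was called without scaling. The latter fell just under the fold threshold without LL1 (-0.99). FZD8 (chr13:26147159-26150735), which is closest to FZD5 in the family, was 1.99, 4.02 and 3.54 in the LL goats, 1.10, 1.39 and 1.71 in DP and 1.13, 1.06 and 0.641 in LG. In LG against LL it was lower by a log2 fold change of -1.08 ± 0.20 (adjusted p = 0.00206), a call lost without LL2 (-0.97) or LG3 (-0.95), with only the 2 stages compared in the fit (-0.997) and without scaling (-0.34, adjusted p = 0.152). In DP against LL its log2 fold change was -0.78 (adjusted p = 0.00943).

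The other tested FZD genes, FZD2, FZD3, FZD6 and FZD10, were not called. FZD3 was the most even of them, at 3.13 to 4.09 in all libraries, and FZD6 ranged from 3.69 to 5.53. FZD9 was not tested and had at most 0.61 deposited FPKM. The relative weight of the 10 FZD genes is likewise a description. FZD1 held 19.1% ± 2.22 (SD, n = 3) of the summed FZD level in LL, 44.5% ± 8.01 in DP and 34.2% ± 5.83 in LG, and FZD7 held 8.68% ± 0.754, 16.9% ± 0.460 and 20.3% ± 1.90. FZD5 held 9.40% ± 4.90 in LL, 0.679% ± 0.0897 in DP and 2.69% ± 1.01 in LG. FZD1, FZD2, FZD3, FZD4, FZD6, FZD7 and FZD10 never fell below the fixed amounts (the lower ones in DP) in any library. The amounts weigh most on LL, whose FZD sum was the smallest (mean of 22.2 deposited FPKM, against 107 for DP). FZD shares with the amounts taken off were not computed, and the part of the amounts in these shifts was not tested.

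**Figure D3:**
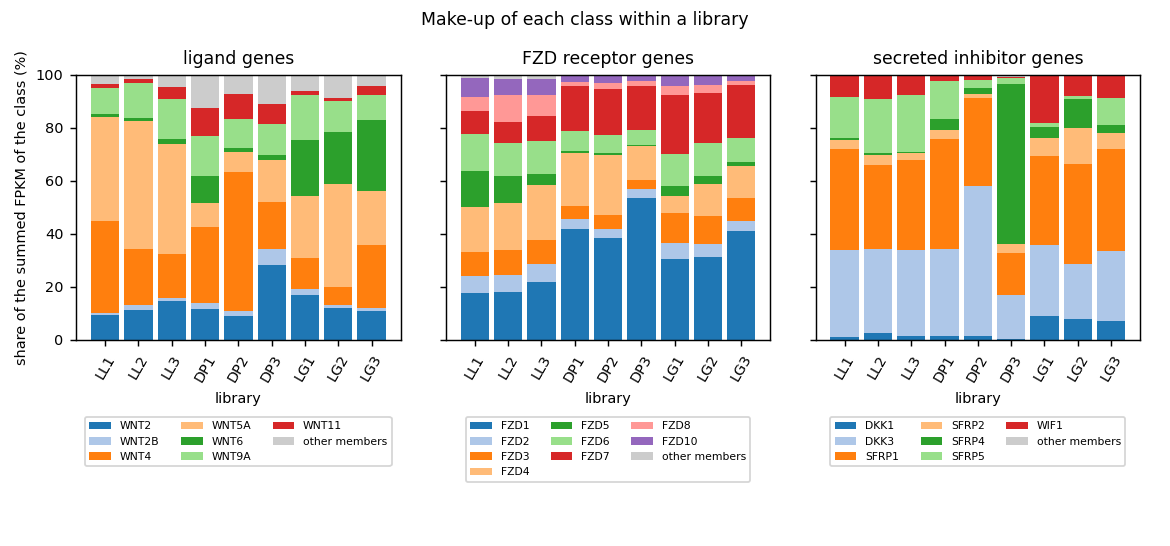
Share (%) of the summed FPKM of the ligand, FZD receptor and secreted inhibitor genes held by each member, 1 bar for each library, with minor members added up in grey. WNT5A takes 42.9% of the ligand sum in LL on average and WNT6 22.5% in LG, FZD1 takes 44.5% of the FZD sum in DP, and SFRP4 takes 60.5% of the inhibitor sum in DP3 alone.

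Of the co-receptors, LRP5 was called and LRP6 was not. LRP6 was among the strongest members at every stage, with 13.7 to 19.0 in the LL libraries, 20.6 to 29.0 in DP and 16.7 to 19.8 in LG, and it was not called in any comparison. LRP5 (chr29:46841559-46964044) was 8.38, 6.87 and 6.76 in the LL goats, 5.15, 3.95 and 4.69 in DP and 12.9, 14.0 and 10.9 in LG. The stages did not overlap, with LG highest and DP lowest. LG exceeded DP by 1.28 ± 0.14 (log2, adjusted p = 0.000236), under each of the 20 alternatives. In DP against LL the log2 fold change of LRP5 was -0.58 (adjusted p = 0.00734), which turned to 0.62 without scaling, and in LG against LL it was 0.71 (adjusted p = 0.00297).

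Of the R-spondin receptors, LGR4 was found throughout, at 6.23, 8.09 and 6.94 in the LL libraries, 8.56, 8.07 and 6.33 in DP and 9.63, 10.3 and 7.83 in LG. These ranges overlapped, and no comparison was called (log2 fold changes of 0.10 to 0.34). LGR5 (chr5:900871-1029472), a marker of progenitor cells in several epithelia, was 0.504, 0.199 and 0.116 in the LL goats, 3.10, 0.570 and 1.06 in DP and 0.1, 0.0732 and 0.114 in LG. It passed the filter through the 3 DP libraries alone, so that a difference from DP was built into its selection, and without any 1 of them it was not tested. LGR5 differed by -1.11 ± 0.30 (log2) in LG against DP (adjusted p = 0.0184) and 0.91 in DP against LL (adjusted p = 0.0275), and most of the DP mean came from DP1. The former was lost with quantile normalization (-0.97, adjusted p = 0.0608). LGR6 was at most 0.43 deposited FPKM and was not tested.

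Among the secreted inhibitors, DKK3 and SFRP1 were high in DP, SFRP5 was low in LG, and SFRP4 was very high in a single DP library. The median log2 fold change of the 7 tested genes of this class was 1.09 for DP against LL, -0.25 for LG against LL and -1.88 for LG against DP, while it was 0.27, -0.17 and -0.33 over all 32 tested members and 0.0041, 0.019 and 0.0083 over all genes tested. The value of 1.09 is that of SFRP2, which was not called (adjusted p = 0.126) and whose DP level rests on DP3 (10.9, against 1.81 in DP1 and 0.925 in DP2).

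DKK3 (chr15:41594319-41645492), a divergent DKK protein that is not a typical blocker of LRP6, was 7.94, 8.54 and 11.2 in the LL libraries, 16.7, 40.2 and 52.8 in DP and 3.04, 4.47 and 5.16 in LG. The 3 stages did not overlap. The log2 fold change was 1.74 ± 0.36 in DP against LL (adjusted p = 0.00288) and -2.72 ± 0.36 in LG against DP (adjusted p = 0.000519), the latter being the largest called change of any member in that comparison. In LG against LL it was -0.98 (adjusted p = 0.0456), and 0.031 without scaling.

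SFRP1 (chr27:9355634-9398794) was 9.17, 8.54 and 11.8 in the LL goats, 21.3, 23.8 and 50.9 in DP and 3.87, 8.14 and 7.56 in LG. Every DP library lay above every other library. SFRP1 differed by 1.51 ± 0.34 (log2) in DP against LL (adjusted p = 0.00440) and -2.08 ± 0.34 in LG against DP (adjusted p = 0.00154). Without DP3, which was highest, the differences were 1.13 and -1.69 and were still called. The calls of DKK3 and SFRP1 in both comparisons with DP held under each of the 20 alternatives.

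SFRP4, also a WNT binding protein, was 0.242, 0.290 and 0.149 in the LL libraries, 2.11, 1.63 and 194 in DP and 0.444, 2.37 and 0.572 in LG. DP3 alone lifted its mean to the highest of the secreted inhibitor class. No LL library reached 0.5 deposited FPKM, so that SFRP4 passed the filter through DP and LG alone. The log2 fold change was 3.25 ± 1.34 in DP against LL (adjusted p = 0.0617), which did not pass. Without DP3 it was 1.19 (adjusted p = 0.0114), without DP1 4.16 (adjusted p = 0.0331) and without DP2 4.29 (adjusted p = 0.0255), each of which did. In LG against DP it was -2.57 (adjusted p = 0.165) with DP3 and -0.52 without it.

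SFRP5 (chr26:32696012-32700886) was 3.73, 5.42 and 7.44 in the LL goats, 7.36, 2.13 and 7.23 in DP and 0.176, 0.236 and 1.98 in LG. LL and DP overlapped, and all LG libraries lay below both, LG3 only slightly below DP2. SFRP5 differed by -1.96 ± 0.45 (log2) in LG against LL (adjusted p = 0.00573) and -1.88 ± 0.45 in LG against DP (adjusted p = 0.0107). The call against LL was lost without scaling (-1.16, adjusted p = 0.0543). DKK1, SFRP2 and WIF1 were not called. DKK1, a blocker of LRP5 and LRP6, was 0.242 to 0.707 in the LL libraries, 0.768 to 1.36 in DP and 1.04 to 1.68 in LG. SFRP2 was 10.9 in DP3 and at most 2.94 in any other library. DKK2, which was not tested, had 3.54 deposited FPKM in DP3 and at most 0.37 elsewhere.

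The summed secreted inhibitor FPKM divided by the summed ligand FPKM of the same library, a ratio that does not depend on scaling, was 1.02, 1.25 and 1.84 in the LL goats, 5.77, 3.95 and 14.7 in DP and 1.28, 1.97 and 2.01 in LG. All DP libraries lay above all others, and LL and LG overlapped. The value of 14.7 in DP3 rests on SFRP4. Without that gene the ratio was 1.36 ± 0.424 (SD, n = 3) in LL, 5.06 ± 1.05 in DP and 1.65 ± 0.373 in LG. Without SFRP4 and without the members at the fixed amounts it was 1.68 ± 0.657, 7.21 ± 2.40 and 1.95 ± 0.384. DKK3, which is not a typical blocker of LRP6, held 32.6%, 56.4% and 16.4% of the inhibitor sum in DP1, DP2 and DP3. Its mean share was 32.3% in LL and 24.5% in LG. The ratio without DKK3 was not computed, so that the separation of DP2 from the other stages may rest largely on this gene. A ratio of transcript sums does not give the balance of the proteins.

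Markers of other cell types differed between the stages too. Of 6 fibroblast genes, 5 (COL1A1, COL1A2, COL3A1, DCN and PDGFRA) were called higher in DP against LL, COL1A1 and COL3A1 were called higher in LG against LL, where PDGFRA (-0.76, adjusted p = 0.0109), DCN (-0.24, adjusted p = 0.470) and LUM (0.015, adjusted p = 0.983) were not called, and DCN and PDGFRA were called lower in LG against DP. Their summed scaled FPKM was 212 to 325 in LL, 504 to 2399 in DP, with the highest value in DP3, and 523 to 957 in LG, and no marker of the list was at 0 in every library. Leukocyte markers summed to 24.0 to 29.5 in the LL libraries, 50.4 to 104 in DP, with the highest value in DP1, and 21.7 to 29.3 in LG. Of 5 tested, 3 were called higher in DP against LL and 3 lower in LG against DP. In LG against LL, CD68 was called lower (-1.05, adjusted p = 0.0400) and none was called higher. Adipocyte markers summed to 2.72 to 3.73 in LL, 1.14 to 1.69 in LG and 2.58 to 20.4 in DP. The highest sum was in DP1, where LGR5 and WNT6 were also highest among the DP libraries. LEP was at 0 in all LL libraries. CIDEC made up most of the LL and LG sums. It was 1.07, 1.37 and 1.87 deposited FPKM in LL and 1.58, 1.2 and 1.0 in LG. These values stood close to the fixed amounts, so that the LL and LG sums cannot be set against each other. Endothelial markers summed to 93.5 to 125 in the LL goats, 113 to 161 in DP and 58.2 to 80.1 in LG, with TEK called lower in LG against DP. PECAM1 was the largest part of these sums. These genes did not move together in LG against LL. There PECAM1 was at -0.91 (adjusted p = 0.00553) and KDR at 0.70 (adjusted p = 0.00557), with CDH5 at -0.054, VWF at -0.35 and TEK at -0.55. Myoepithelial and basal markers summed to 190 to 248 in the LL libraries, 141 to 460 in DP and 230 to 311 in LG. Of these 7 genes, TP63 was called higher in DP and in LG against LL, and OXTR higher in LG against both. Both were weak in LL, at 0.09 to 0.19 deposited FPKM for TP63 and 0 to 0.17 for OXTR. KRT5, KRT14, ACTA2, MYH11 and CNN1 were not called in any comparison. Their log2 fold changes from LL to DP were 0.95, -0.91, -0.00068, -0.24 and -0.20. From LL to LG they were 0.88, -0.28, 0.054, -0.48 and -0.89. The values of KRT5 and KRT14 in the myoepithelial sum and of PECAM1 in the endothelial sum followed those of a neighbouring gene. The part of these cell types in the differences of FZD1, FZD4, DKK3, SFRP1 and the other members was not tested.

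**Figure D4:**
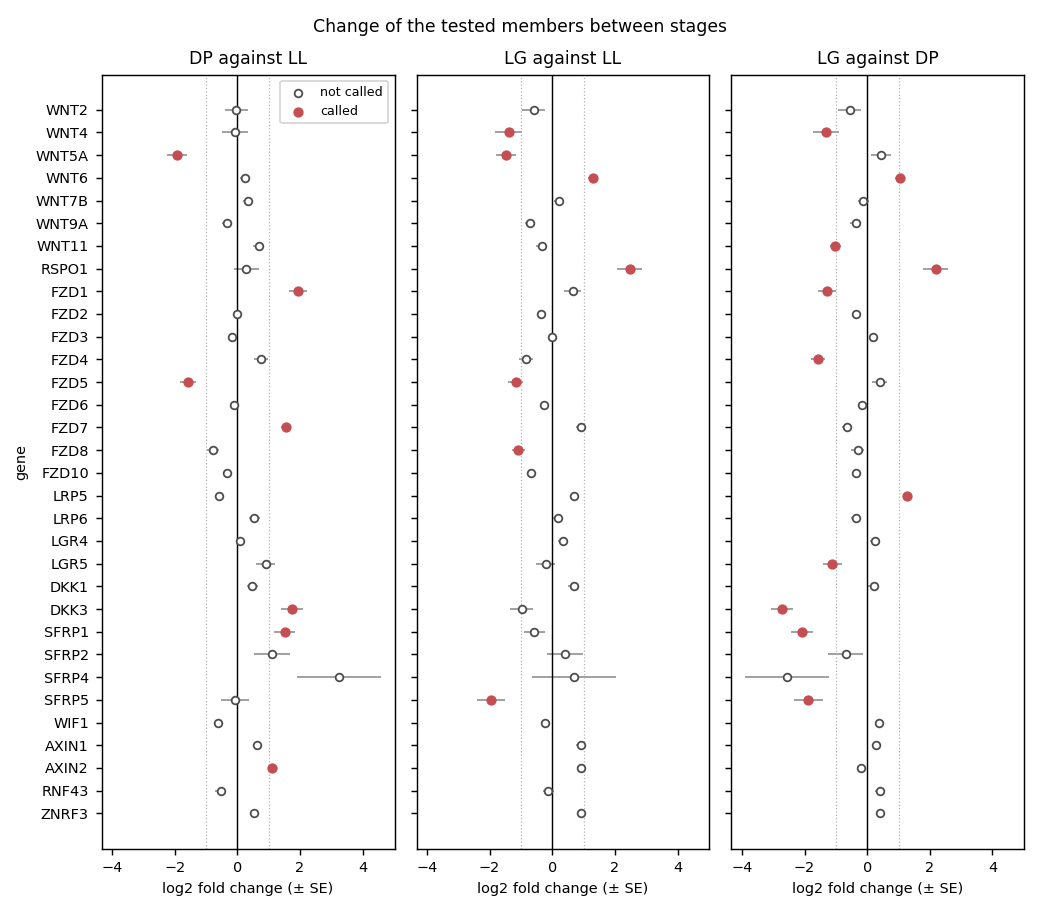
Log2 fold change on the log2(scaled FPKM + 1) scale (point) with its SE (line) of the 32 tested members in each comparison, with the fold threshold of 1 in either direction dotted and called members filled. In LG against DP, 8 filled points lie left of 0 and 3 right of it, and the widest line belongs to SFRP4, with an SE of 1.34.

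Of the feedback inhibitors, AXIN2 alone was called, although with the fixed amounts subtracted AXIN2 lost its call in DP against LL (0.96) and AXIN1 gained one (1.08). AXIN2 (chr19:61364767-61392807), the common readout of beta-catenin activity, was 0.544, 0.435 and 0.530 in the LL libraries, 2.17, 2.24 and 2.34 in DP and 1.57, 2.21 and 1.76 in LG. LL lay well below both other stages, which overlapped. No LL library reached 0.5 deposited FPKM, so that AXIN2 passed the filter through DP and LG alone. A difference from LL was thus built into its selection. The log2 fold change was 1.11 ± 0.12 in DP against LL (adjusted p = 5.5e-05), called, and 0.92 in LG against LL (adjusted p = 0.000235), just under the fold threshold. The call in DP was also lost with quantile normalization (0.58), and the adjusted p stayed under the threshold in both alternatives (0.000229 and 0.00904).

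AXIN1, the constitutive scaffold of the destruction complex and the strongest of this class, was 3.65, 3.28 and 4.49 in the LL goats, 6.32, 5.73 and 7.25 in DP and 7.57, 7.75 and 8.52 in LG. The stages did not overlap. It was not called, with log2 fold changes of 0.63 in DP against LL (adjusted p = 0.00314) and 0.90 in LG against LL (adjusted p = 0.000536), both of which passed with the fixed amounts subtracted (1.08, adjusted p = 0.00117, and 1.39, adjusted p = 0.000394). The ubiquitin ligase gene ZNRF3 was 0.443 to 0.530 in the LL libraries, 0.911 to 1.27 in DP and 1.63 to 1.96 in LG, with 0.93 in LG against LL (adjusted p = 0.000249), not called either. No LL library of ZNRF3 reached 0.5 deposited FPKM, so that a difference from LL was built into its selection as well. Its partner RNF43 was not called, at 2.64 to 3.00 in the LL goats, 1.55 to 1.71 in DP and 1.62 to 3.45 in LG. As deposited, RNF43 had 1.31 to 1.81 FPKM in LL, fewer than the 2.22 to 2.46 of DP. These LL values stood close to the fixed amounts, so that the scaled level of RNF43 in LL cannot be set against the other stages.

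Of 67 other genes of the pathway, 64 were in the table and 55 were tested. In DP against LL, 12 were called higher and 1 lower (23.6%, against 22.6% of all genes). In LG against LL, 7 were called, each of them higher (12.7%, against 17.3%), and in LG against DP 3 were called higher and 5 lower (14.5%, against 13.3%). In LL, 11 of the 55 stood at the fixed amounts, among them the transcription factor LEF1 and the target SP5, so that neither of these can be read there. No LL library of CELSR1, PRICKLE1, PRICKLE2, AMER1, DVL2 or DACT1 reached 0.5 deposited FPKM, so that a difference from LL was built into their selection.

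Of 3 tested genes for WNT secretion, WLS, the carrier that takes WNT proteins to the cell surface, was called in DP against LL (1.2, adjusted p = 0.000161), with 2.74 to 3.13 deposited FPKM in the LL goats, 18.4 to 22.1 in DP and 6.99 to 9.89 in LG. Among 4 tested secreted inhibitors outside the symbol rule, SOSTDC1, which binds LRP5 and LRP6, was higher in DP than in LL (1.63, adjusted p = 0.000120), and IGFBP4 was higher in DP than in LL (1.67, adjusted p = 0.00541) and lower in LG than in DP (-1.33, adjusted p = 0.0249). FRZB, the remaining SFRP-type gene, stood at the fixed amounts in LL and was not called.

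Among 6 tested co-receptors, PTK7, a receptor-like protein of the polarity route, was 1.68 to 2.23 deposited FPKM in the LL goats, 8.97 to 14.2 in DP and 29.6 to 36.3 in LG. It was higher in LG than in LL (2.6, adjusted p = 3.03e-06) and than in DP (1.63, adjusted p = 8.96e-05). The glypican GPC3 was lower in LG than in DP (-1.58, adjusted p = 0.000134). Of 7 tested planar polarity genes, CELSR1 was higher than in LL in both DP (1.73) and LG (2.13), as was PRICKLE1 (1.58 and 1.31), and PRICKLE2 was higher in DP than in LL (1.13), with 0.26 in LG against LL.

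Of 17 tested cytoplasmic genes, AMER1, a membrane anchor of the destruction complex, was higher than in LL in DP (1.48) and LG (1.89), as was DVL2, which relays the receptor signal (1.44 and 1.62). DACT1, which binds DVL proteins, was higher in DP than in LL (2.21) and lower in LG than in DP (-1.24). NKD2, a DVL antagonist, was at 14.4 to 23.1 deposited FPKM in the LL goats, 3.43 to 8.42 in DP and 50.0 to 56.2 in LG. It was lower in DP than in LL (-2.85, adjusted p = 1.56e-05) and higher in LG than in DP (3.14, adjusted p = 4.5e-05). Of 12 tested nuclear genes, TCF7L2, a partner of beta-catenin on DNA, was higher in LG than in LL (1.16) and than in DP (1.01).

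Of 9 tested targets of beta-catenin, CCND1, the cell cycle gene of cyclin D1, was higher than in LL in DP (1.47, adjusted p = 0.000957) and LG (2.21, adjusted p = 0.000111). The adhesion receptor gene CD44 was higher in DP than in LL (1.3) and lower in LG than in DP (-1.88), as was PROCR (1.35 and -1.54), whose values followed those of a neighbouring gene and are not a separate measurement. None of the 50 members was linked to a neighbour in this way.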

How the data were processed

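RNA of 9 mammary tissue samples was sequenced by the authors (TRIzol, TruSeq, HiSeq). The submitters' processing notes list FastQC, Trimmomatic, HISAT2, SAMtools and HTSeq, and the paper's methods name StringTie for FPKM. The deposited table holds 1 value per gene and library and names neither unit nor genome build; the values were read as FPKM that the authors computed, since they carry decimals and their sums differ. Coordinates are those of the table, and the identifier, start and end of all 50 members match the RefSeq gene table of ARS1.2.

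Values were divided by median-ratio factors (15905 genes), 1 was added and log2 was taken. The test was limma 3.58.1 (R 4.3.3) on the 14701 genes that reached 0.5 FPKM in 3 or more libraries (mean-variance trend, all 9 libraries, no covariates, Benjamini-Hochberg adjustment over all genes tested), and the script was tested on simulated data. Shares, sums and figures were made in Python 3.11.15 with numpy 2.4.6, pandas 2.3.3 and matplotlib 3.10.9. An exact permutation test of 3 against 3 libraries cannot go below p = 0.1 and was not used. Linked genes were those whose values followed a neighbour's to within 1% of its range (1511 of 15945 searched).

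The members and lists were chosen with earlier results of these data known. Named members are those called in any comparison and the one with the highest mean of each class; from each other list and comparison, up to 3 called genes with the largest change. Alternatives covered the scaling, pseudocount (0.1), filter, libraries fitted, replicate block, trend, linked genes, threshold and each library left out. Subtraction of the fixed amounts, and ratios without some members, were added after the values were seen. KRT17 and FABP4 were not analysed here. Sequences were not used here.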

Additional observations from a re-analysis of the deposited data

How the results depend on the processing

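Of 773 alternative values of 39 member results, 700 kept direction and side of the threshold, 38 lost the call, 32 gained it and 3 reversed. The reversals came without scaling: LRP5 in DP against LL (0.62), FZD4 in LG against LL (0.14) and DKK3 in LG against LL (0.031), none called in the fit as reported. Without scaling, the genes called were 8348 in DP against LL and 7043 in LG against LL, and the members called 16 and 11. With a pseudocount of 0.1, 4484 genes and 13 members were called in DP against LL, and 3912 genes and 15 members in LG against LL. With the adjusted p alone, 8358, 7383 and 5112 genes and 19, 18 and 15 members were called in DP against LL, LG against LL and LG against DP. With the amounts subtracted, in either version, 11 members were called in LG against LL, beside 3106 and 3162 genes. With each library left out in turn, 7 to 9 members were called in DP against LL, 5 to 9 in LG against LL and 7 to 11 in LG against DP, beside 3077 to 3425, 2403 to 2588 and 1739 to 2006 genes, the fewest members in LG against DP without DP2 or DP3. Dropping a library lowers the number of samples, and the cause of the other changes was not tested. LGR5 did not pass the filter without DP1, DP2 or DP3, and LGR5, WNT11 and FZD5 did not pass the filter of at least 2 FPKM.

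Replicate numbers are shared between stages but the labels do not say that they pair the goats, and same-numbered libraries did not all deviate together (correlations of -0.106 to 0.201). Differently numbered libraries had correlations of -0.223 to 0.0722. The highest correlations were of same-numbered libraries: DP1 with LG1 (0.201), DP3 with LG3 (0.156) and LL1 with DP1 (0.151). Whether the numbers share some factor was not tested. With the replicate number as a block, 3342, 2567 and 1989 genes and 7, 7 and 10 members were called, the member lost being WNT4 in LG against DP (-1.31, adjusted p = 0.0535). With no read counts, no limit of detection could be set for weak members.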

Other observations

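Several WNT ligand genes lie next to each other. WNT6 and WNT10A lie on chromosome 2 on the same strand, 7.103 kb apart. WNT6 was 2.25, 2.63 and 3.42 deposited FPKM in LG, where WNT10A was 0.19, 0.16 and 0.10. WNT3A and WNT9A lie on chromosome 7 on opposite strands, 30.7 kb apart, and WNT9A stood at the fixed amounts in LL, so that its level there cannot be read. WNT3 and WNT9B lie on chromosome 19, 26.6 kb apart, and WNT9B was 0.38, 0.39 and 1.04 in DP, where WNT3 was at most 0.11. WNT1 was at 0 in every library, and its neighbour WNT10B, 5.528 kb away on chromosome 5, was 0.97 in DP3.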
